A study of Danio rerio with 3 samples.

Results

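The genes that drive or hold back the last stage of cartilage maturation were followed in laser-captured cartilage of wild-type zebrafish. They were taken by name from the count table: the hypertrophy marker col10a1, the runt-domain factors runx2a, runx2b and runx3, their partner cbfb, the Mef2 factors mef2ca and mef2cb, and the brakes hdac4, pthlha and pth1ra. All 10 had a row, of 14417 genes in all. Cartilage of the occipital part of the cranial base was cut from sections of larvae at 6 days post-fertilization (dpf), leaving out the perichondrium, for 3 independent samples. They are named here library 1, library 3 and library 6, as numbered in the labels. Every sample was wild type, of 1 age and untreated, so there was no contrast between conditions, and the number of larvae behind each sample is not given in the sources used here.

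Chondrocytes of a cartilage that will be replaced by bone stop dividing, enlarge and change the matrix they secrete, a step called hypertrophy. In mouse, Runx2 and Runx3, bound to the non-DNA-binding subunit Cbfb, and Mef2c promote this step and the expression of collagen X, whereas Hdac4 represses Mef2c and Runx2. Indian hedgehog from maturing chondrocytes maintains parathyroid hormone-related peptide (PTHrP, pthlha), which acts through the receptor Pth1r to keep younger chondrocytes from maturing. Several of these genes also work outside cartilage. In zebrafish, col10a1 and the runx2 genes are expressed in osteoblasts as well, and Mef2 factors take their name from muscle.

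The libraries held 18920027 to 25604897 counts. A single gene listed as AC024175.4 took 34.7% to 59.0% of them, so counts were scaled by TMM (trimmed mean of M-values) to the mean library and are called normalized counts here. No pair of libraries agreed within sampling noise in raw counts set against their totals (chi-square over its degrees of freedom, 166 or more). AC024175.4 was included, so its shift between libraries is part of these values. Of 15 early chondrocyte genes found, 14 reached 10 normalized counts in each of the libraries, led by col2a1a, col11a1a and col9a2, which encode chains of the cartilage collagens II, XI and IX. Reads of marker genes of other tissues were also found. Over all genes, 67.8% passed this minimum, the share to set beside each count given here. Of 12 perichondrium and bone genes, 8 passed it, near that share. The list summed to 199340, 7317 and 12423 normalized counts in libraries 1, 3 and 6. The osteoblast factor sp7 had 0 reads in library 1, and 27 and 47 reads in libraries 3 and 6. A count of 0 was taken to allow up to 3 reads, a fixed floor and not an exact interval. The muscle list (15 of 17 past the minimum, with the myogenic factor myog at 0 in library 3) summed to 11090, 5013 and 19259 in libraries 1, 3 and 6. In the same order, the nerve list (10 of 11) summed to 7488, 10780 and 16837, the blood list (5 of 6) to 36686, 5162 and 37112, and the epidermis list (6 of 7, with cldne at 0 in libraries 3 and 6) to 40516, 6243 and 6416. In such bulk samples, fewer cells of a type and less RNA per cell cannot be told apart.

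**Figure D1:**
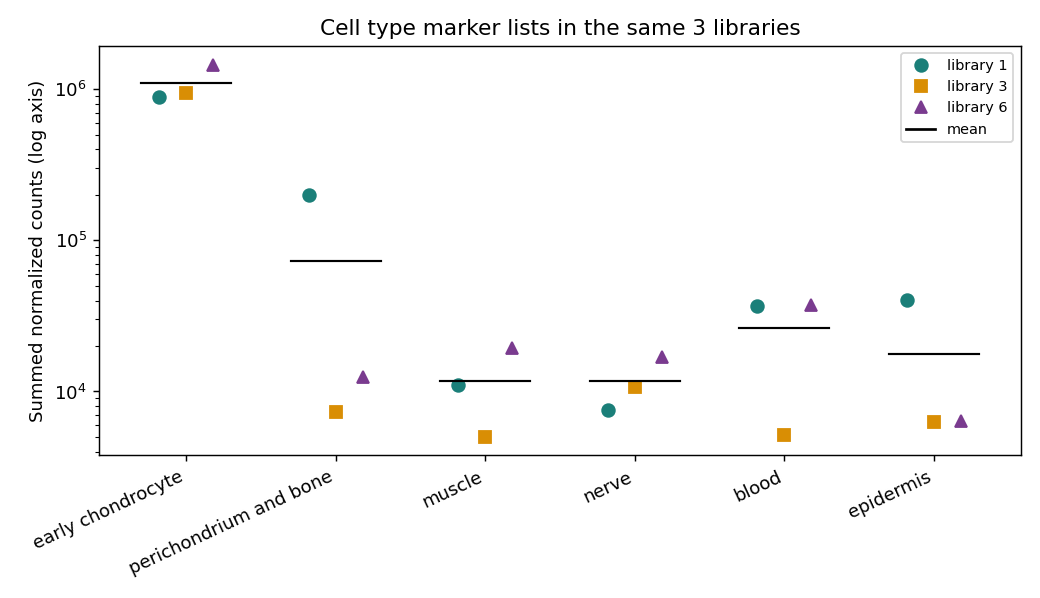
Summed normalized counts of each cell type marker list (log axis) in libraries 1, 3 and 6, with the mean as a black bar. The early chondrocyte list is the highest in each library, and the perichondrium and bone list ranges from 7317 in library 3 to 199340 in library 1.

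Of the 10 maturation genes, 9 reached 10 normalized counts in each of the libraries, as did 67.8% of all genes. The median of their mean levels was 418 normalized counts, against 109.7 over all genes. These are read numbers that were not divided by transcript length, so they do not rank the genes by expression. The gene that did not pass was the PTHrP receptor pth1ra. Intervals given below are exact Poisson 95% intervals of the read count, scaled to normalized counts, and they cover counting error only, since amplified reads are not independent molecules.

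The hypertrophy marker col10a1, which encodes the chain of collagen X, had 1627, 574 and 7069 normalized counts in libraries 1, 3 and 6. In that order, its percentile among all genes was 94.1, 83.9 and 98.6, and its mean was 3090 ± 3486 (SD, n = 3 libraries). Reads of col10a1 were thus abundant in each sample, but far from even. Library 6 was 12.3-fold above library 3, and the intervals of 1551 to 1707, 526 to 625 and 6910 to 7231 for libraries 1, 3 and 6 do not overlap. Without library 6 the mean was 1101. On the scale of log2 (CPM + 1), where CPM is the count relative to the effective library size, the SD of col10a1 between libraries was 1.80, larger than in 98.5% of the genes past the minimum. In edgeR its biological coefficient of variation was 0.573, where the trend at its abundance was 0.435.

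The spread of col10a1 was set beside the amount of cartilage RNA. The 15 early chondrocyte genes summed to 887929, 950945 and 1459456 normalized counts in libraries 1, 3 and 6. Per 1000 reads of these genes, col10a1 had 1.83, 0.603 and 4.84 reads in libraries 1, 3 and 6, an 8.03-fold range, and the part of the amount of cartilage RNA in the col10a1 values was not tested. Leaving col2a1a out of the list, a choice made after seeing the data, gave 2.69, 0.934 and 7.22. The muscle list was also highest in library 6 and lowest in library 3. The blood list was lowest in library 3 too, but nearly level between libraries 1 and 6 (36686 and 37112). The part of muscle and blood RNA in the col10a1 values was not tested. The perichondrium and bone list had its highest sum in library 1. Its most abundant genes were col1a1b, col1a1a and col1a2, for collagen I chains of bone and connective tissue. In libraries 1, 3 and 6, col1a1b had 91710, 435 and 1864 normalized counts. In the same order, col1a1a had 56620, 3876 and 5989, and col1a2 had 37406, 784 and 2045. The genes of this list did not share 1 order: of 12, 8 were highest in library 1 and 4, among them sp7, in library 6. The epidermis list was also highest in library 1 (40516, against 6243 and 6416 in libraries 3 and 6). The part of perichondrium, bone and epidermis RNA in the col10a1 values was not tested.

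Of the runt-domain factors, runx2b, 1 of the 2 zebrafish copies of Runx2, had 606, 492 and 1439 normalized counts in libraries 1, 3 and 6 (846 ± 517, SD, n = 3). The related factor runx3 had 579, 542 and 1574 in libraries 1, 3 and 6 (898 ± 585). Both were highest in library 6, by 2.92-fold and 2.90-fold over library 3. The median range of genes past the minimum was 2.51-fold. The SD of log2 (CPM + 1) was larger than in 69.3% of those genes for runx2b and 72.3% for runx3. The intervals of libraries 1 and 3 overlap for runx3 but not for runx2b. Without library 6 their means were 549 and 561. The other copy, runx2a, had 246, 172 and 193 normalized counts in libraries 1, 3 and 6 (204 ± 38.3). Among the 10 genes it had the smallest SD of log2 (CPM + 1), 0.24, larger than in 12.2% of the genes past the minimum. The interval of runx2a in library 6 overlaps those of both other libraries.

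The balance of reads between the 2 copies of Runx2 differed between samples. For each runx2a read there were 2.46, 2.87 and 7.45 runx2b reads in libraries 1, 3 and 6, a range of 3.03-fold. The log2 ratio was 1.90 ± 0.87 (SD, n = 3). An exact two-sided sign-flip permutation test of equal reads of the 2 copies gave p = 0.25, the smallest p that 3 libraries allow. That test does not compare the libraries with each other. Since transcript lengths were not used, the ratio does not say which copy is more expressed, but its range between libraries does not depend on length. How the counting treated reads that match both copies is not given in the sources used here, so the split is uncertain, as it is for mef2ca and mef2cb and for col10a1 and its copy col10a1b, which was not analysed here. In the RefSeq annotation runx2a overlaps cdc5l and supt3h, and the library kit does not mark strand. In libraries 1, 3 and 6, cdc5l had 593, 16.5 and 148 normalized counts and supt3h had 98.4, 57.3 and 85.2. Both had the order of the libraries that runx2a had, an order found in 19.3% of the 13166 genes whose mean reached 10 normalized counts. Of the other Runx genes, runx2b overlaps opn8a and runx3 overlaps LOC141377015, neither of which was matched to a row. The part of reads from overlapping genes was not tested.

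The partner of these factors, cbfb, which raises the affinity of Runx proteins for DNA, had 82.0, 196 and 177 normalized counts in libraries 1, 3 and 6 (152 ± 61.1, SD, n = 3). It was low in library 1 only, where its interval of 65.5 to 101 lay below those of the other 2 libraries, 168 to 227 in library 3 and 153 to 204 in library 6. Unlike runx2b and runx3, cbfb was thus not highest in library 6 in normalized counts.

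**Figure D2:**
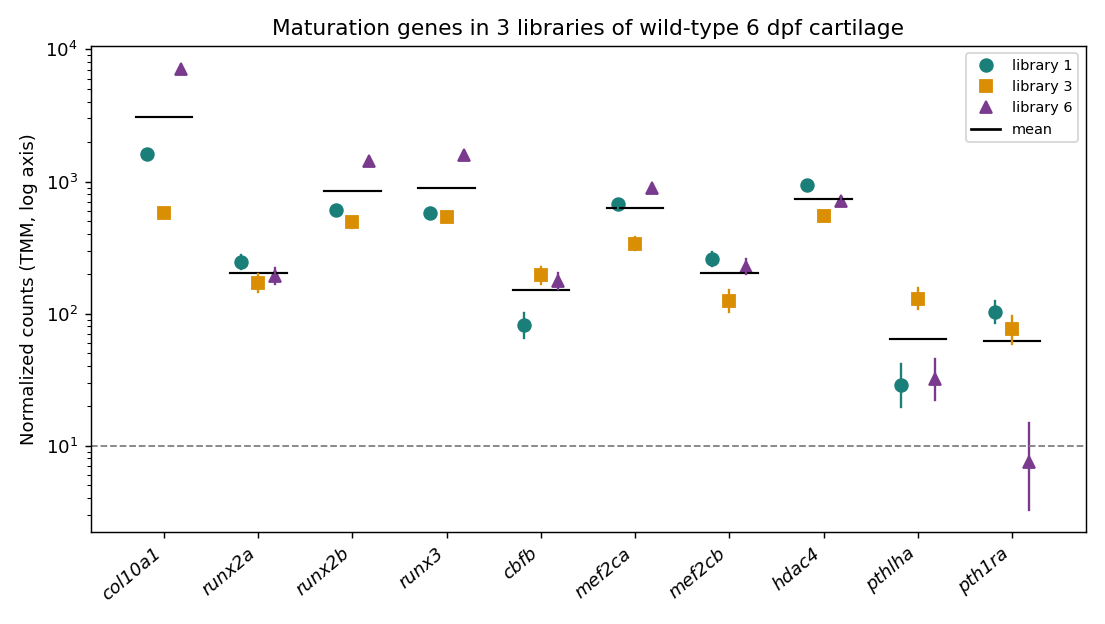
Normalized counts (log axis) of the 10 maturation genes in libraries 1, 3 and 6, with exact Poisson 95% intervals of each count as vertical lines, the mean as a black bar and the minimum of 10 as a dashed line. The col10a1 points run from 574 to 7069, those of runx2a from 172 to 246, and pth1ra falls below the dashed line in library 6.

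The Mef2 factors mef2ca and mef2cb are the 2 zebrafish copies of Mef2c. Levels of mef2ca were 672, 337 and 888 normalized counts in libraries 1, 3 and 6 (632 ± 278, SD, n = 3), highest in library 6, with intervals that do not overlap. Levels of mef2cb were 259, 126 and 226 in libraries 1, 3 and 6 (204 ± 69.4), low in library 3, with overlapping intervals in the other 2. There were 2.60, 2.68 and 3.92 mef2ca reads for each mef2cb read in libraries 1, 3 and 6. The log2 ratio was 1.59 ± 0.33 (p = 0.25 in the same exact sign-flip test of equal reads). Both genes were lowest in library 3, as was the sum of the muscle list. The sums of the perichondrium and bone, blood and epidermis lists were lowest there too. The most abundant muscle genes were the myosin light chain mylpfa, the parvalbumin pvalb2 and the creatine kinase ckmb. Of these, mylpfa was lowest in library 3 (1978, 861 and 4015 normalized counts in libraries 1, 3 and 6). In the same order, pvalb2 had 3130, 1172 and 995, lowest in library 6, and ckmb had 490, 696 and 2579, lowest in library 1. The part of muscle RNA in the Mef2 values was not tested.

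The gene hdac4 encodes the deacetylase that represses Mef2c and Runx2 in mouse. It had 944, 551 and 713 normalized counts in libraries 1, 3 and 6 (736 ± 198, SD, n = 3), highest in library 1 and lowest in library 3. The intervals, of counting error only, do not overlap. The 1.71-fold range was below the median of 2.51-fold of genes past the minimum. The SD of log2 (CPM + 1) of hdac4 was larger than in 27.0% of those genes. A further list of Mef2 factors, deacetylases and salt-inducible kinases had 9 genes in the table. All 9 passed the minimum, as did 67.8% of all genes. The most abundant were the salt-inducible kinase sik2b (1740 ± 349), whose family in mouse controls class IIa deacetylases by phosphorylation, mef2aa (1163 ± 355) and mef2d (956 ± 348).

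The PTHrP ligand gene pthlha and the receptor gene pth1ra had the lowest mean normalized counts of the 10 genes. The names of the related copies pthlhb and pth1rb matched no row, so these copies were not analysed. The ligand pthlha had 30, 118 and 34 reads in libraries 1, 3 and 6, or 29.0, 130 and 32.2 normalized counts (63.7 ± 57.4, SD, n = 3). It was high in library 3, where its interval of 108 to 156 lay far above those of libraries 1 and 6, and without library 3 the mean was 30.6. The receptor pth1ra had 107, 69 and 8 reads, or 103, 76.0 and 7.57 normalized counts (62.3 ± 49.3). It was low in library 6 only, with an interval of 3.27 to 14.9 that includes the minimum of 10, so at this depth a level just above the minimum could not be told from the one measured. Library 1 was 13.6-fold above library 6, the widest range of the 10 genes on this scale, although under total-count and upper-quartile scaling and in raw counts that of col10a1 was wider. The SD of log2 (CPM + 1) was 1.12 for pth1ra and 0.89 for pthlha. In the RefSeq annotation pthlha overlaps xpot, which had 1057, 806 and 948 normalized counts in libraries 1, 3 and 6, and pth1ra overlaps LOC141377643 and myl13, for which no row was found. The part of these genes in the values was not tested.

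Of 13 further genes listed for the Hedgehog and PTHrP loop, 8 were found, all in the Hedgehog branch. All 8 passed the minimum, as did 67.8% of all genes. The ligand ihha had 7500, 4343 and 13883 normalized counts in libraries 1, 3 and 6 (8575 ± 4860, SD, n = 3), high in library 6 and low in library 3 like col10a1. The signal transducer smo had 981, 985 and 1444 in the same libraries (1136 ± 266), and the transcription factor gli2a had 634, 1287 and 1131 (1017 ± 341). In normalized counts, library 6 thus had the highest ihha and col10a1 and the lowest pth1ra, whereas its pthlha was close to that of library 1. The sums of the early chondrocyte, muscle and nerve lists were also highest in library 6. In libraries 1, 3 and 6, ihha had 7770, 3943 and 14662 reads. The early chondrocyte genes had about 919910, 863310 and 1541400 reads in the same order. The part of the amount of cartilage RNA in the ihha values was not tested.

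**Figure D3:**
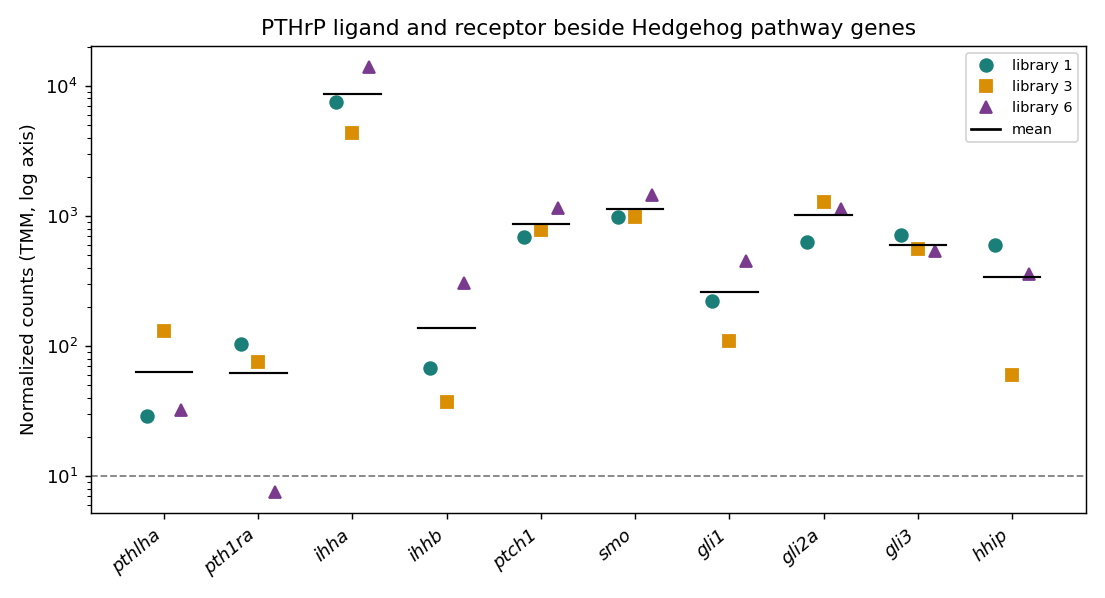
Normalized counts (log axis) of pthlha and pth1ra beside 8 Hedgehog pathway genes in libraries 1, 3 and 6, with the mean as a black bar and the minimum of 10 as a dashed line. The ihha points lie between 4343 and 13883, and the pth1ra point of library 6 is the lowest of the plot.

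Read across the group, the genes fell into 4 orders of the libraries. In 4 genes, col10a1, runx2b, runx3 and mef2ca, library 6 was highest and library 3 lowest, an order found in 13.9% of the 13166 genes whose mean reached 10 normalized counts. In 3 genes, runx2a, mef2cb and hdac4, library 1 was highest and library 3 lowest, as in 19.3% of those genes. The genes cbfb and pthlha were highest in library 3. On this scale, pth1ra alone had its lowest level in library 6. The shares of all genes with these last orders, or lowest in library 6, were not counted. Library 6 was the highest for 4 of the 10, library 1 for 4 and library 3 for 2, where the shares of all such genes were 32.0%, 35.4% and 32.6%. Library 3 was the lowest for 7 of the 10, and for 33.1% of those genes. With 10 genes and 3 samples these are counts and no test of the group. Under total-count scaling, runx2a, mef2cb, hdac4 and cbfb were instead highest in library 6. Per 1000 early chondrocyte reads, the order of some genes also changed. There mef2ca was highest in library 1, with 0.757, 0.354 and 0.609 in libraries 1, 3 and 6. Besides pth1ra, library 6 was then lowest for runx2a (0.277, 0.181 and 0.132), hdac4 (1.06, 0.579 and 0.489) and pthlha (0.0326, 0.137 and 0.0221).

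**Figure D4:**
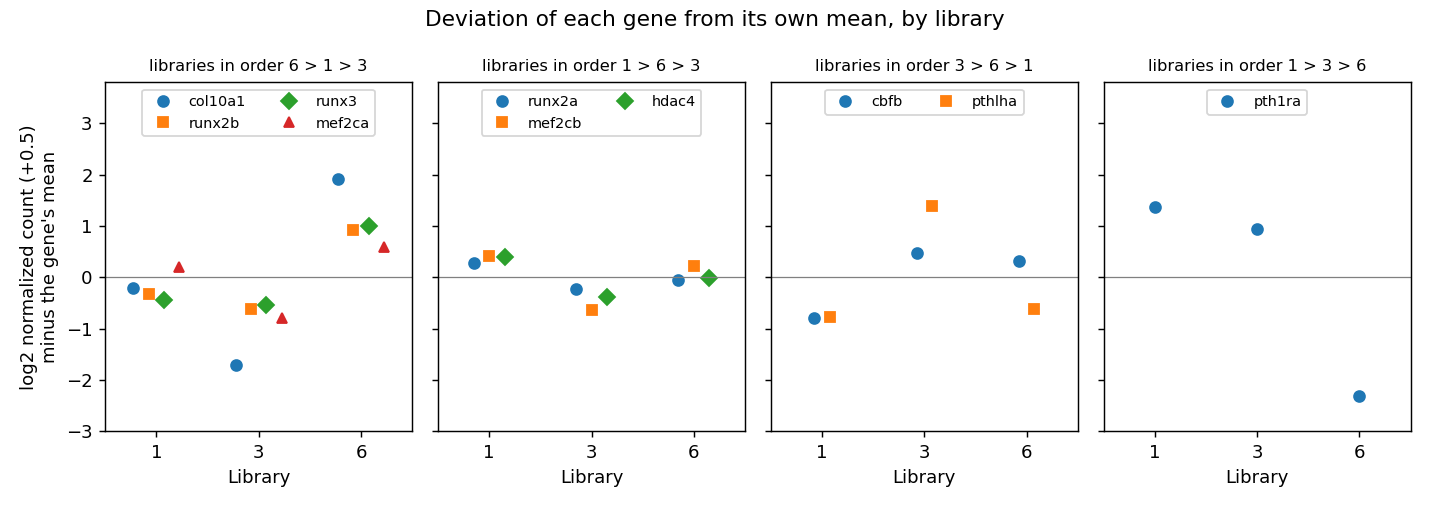
Deviation of each gene from its own mean of log2 (normalized count + 0.5) in libraries 1, 3 and 6, in panels by the order of the libraries. The points of col10a1 spread the most in the first panel, and the single gene of the last panel, pth1ra, is far below its mean in library 6.

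Of 12 late maturation genes found, 8 passed the minimum, or 66.7%, close to the share of all genes. The most abundant were ctgfa, which encodes a matricellular growth factor (7908 ± 4369 normalized counts, SD, n = 3), and the membrane metalloproteinases mmp14a (1578 ± 214) and mmp14b (1119 ± 181). Of 13 Runx partners and related regulators found, 9 passed, or 69.2%, also close to that share. They were led by the coactivator yap1 (2716 ± 790), smad1 (881 ± 218), which transmits bone morphogenetic protein signals, and the forkhead factor foxc1b (608 ± 144). Over the 10 maturation genes, the SD of log2 (CPM + 1) had a median of 0.74, against 0.62 over all genes. Over the 9 maturation genes past the minimum it was 0.69, against 0.58 over all genes past the minimum. The spread of col10a1 and pth1ra thus stood beside that of steadier regulators such as runx2a and hdac4 in the same libraries.

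**Figure D5:**
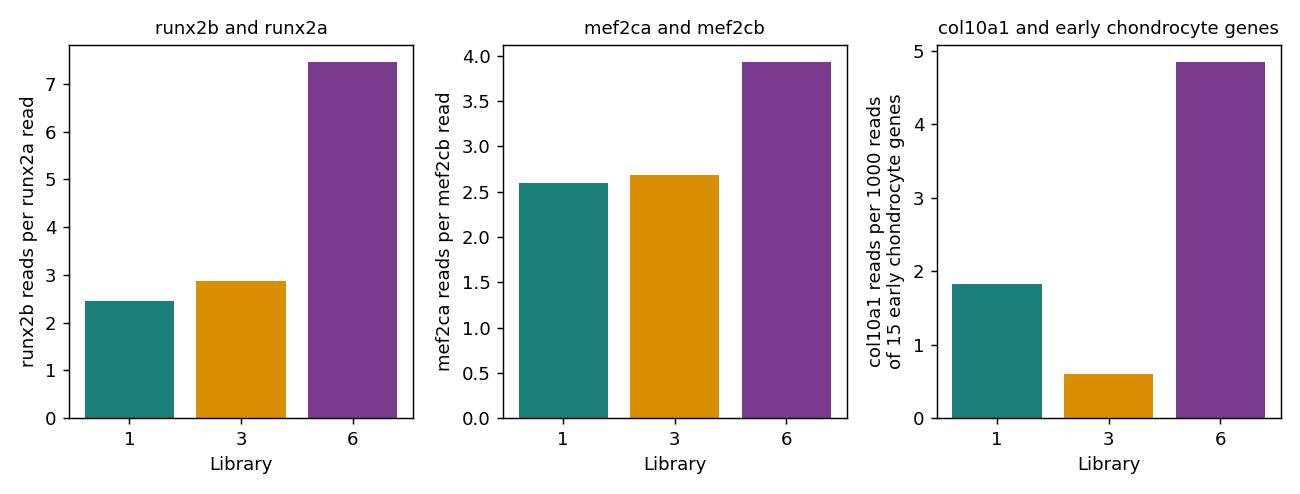
Reads of runx2b per read of runx2a, of mef2ca per read of mef2cb, and of col10a1 per 1000 reads of 15 early chondrocyte genes, each as a bar per library. All 3 ratios are highest in library 6, at 7.45, 3.92 and 4.84.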

How the data were processed

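RNA of laser-captured cartilage was amplified for 1 round and sequenced. The authors deposited whole-number read counts per gene name, without normalization, in 3 columns, all used here. Per the labels, Trimmomatic 0.36, edgeR and the build Zv9 were used. The aligner and annotation are not given in the sources used here, so no coordinates are printed. RefSeq (GRCz12tu) served only for names and overlaps. It lists col10a1 as col10a1a and pth1ra as pth1r. Names, also those of related copies, that matched no row were not analysed.

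Counts were normalized by TMM on all genes in edgeR 4.0.16 (R 4.3.3). Genewise dispersions came from an intercept-only fit on the 9919 genes kept by filterByExpr, which left out pth1ra. Log2 ratios used a pseudocount of 0.5 counts. The planned ratio per coding length was replaced by a ratio of reads, because no coding lengths were at hand. In counts simulated for the 14417 genes, all 200 changed genes had the right direction. These changes were large and were planted only in genes of high level, so genes of low level such as pth1ra and pthlha were not covered.

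Members and lists were chosen with earlier results of these data known. A gene of the Hedgehog list is not reported here. The named genes were all members, the 3 most abundant genes of each list, list genes at 0 in every library (there were none) and the 3 genes nearest in pattern to col10a1, runx2a and runx2b. The genes at 0 in some library (sp7, myog, cldne), the collagen I genes and the overlapping genes were named after their values were seen. For blood, nerve and epidermis the lists are given by their sums. Alternatives were scaling by upper quartile, by total count (also without AC024175.4), by DESeq2 1.42.0 size factors or by TMM on filtered genes, raw counts, other minimums and pseudocounts, and leaving out each library.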

Additional observations from a re-analysis of the deposited data

How the results depend on the processing

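No paired analysis was possible because all samples belong to 1 condition. The ratios per coding length were not run. The number of maturation genes past the minimum was 9 under each of 6 other scalings, between 8 and 10 under the other minimums, and 9 to 10 with 1 library left out. None of 50 mean levels under another scaling moved by more than 1 SD between libraries, a wide measure for genes such as col10a1. The largest ratio between such a mean and the main one was 1.15. With 1 library left out, the means of col10a1, runx2b, runx3 and pthlha moved by over 1.5 times. The log2 ratio ranged from 1.41 to 2.205 for runx2b to runx2a reads and from 1.40 to 1.70 for mef2ca to mef2cb reads. The median SD was 0.45 with a pseudocount of 5 and 0.85 under total-count scaling, and 0.473 to 1.001 with 1 library left out. The common dispersion of 0.363 was 0.846 with no filter on low counts, which brings in genes with few reads, and 0.288 to 0.399 with 1 library left out. Besides the shifts under total-count scaling given above, cbfb was highest in library 6 in raw counts, the lowest library of runx3 was library 1 under upper-quartile scaling, and that of pthlha was library 6 under total-count scaling without AC024175.4. Depth limits pth1ra in library 6, with 8 reads.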

Other observations

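Genes with the most similar pattern were looked up among the 9783 other genes whose mean reached 50 normalized counts, by the Euclidean distance between log2 profiles centred on their mean over the 3 libraries. Nearest to col10a1 were CECR2 (distance 0.0357), bgna, which encodes the small matrix proteoglycan biglycan (0.16), and UGT8 (0.232). Within a distance of 0.5 of col10a1 lay 23 genes (0.235%). The distance is not scaled for spread, so a gene with a spread as wide as that of col10a1 tends to have few such neighbours. Its order of the libraries was found in 13.9% of the genes whose mean reached 10 normalized counts. The bgna level was 35.7, 11.02 and 165 normalized counts in libraries 1, 3 and 6. In library 3, CECR2 had 9.91 and UGT8 12.1. All 3 neighbours were thus near the minimum of 10 there, CECR2 below it, and their distances carry that counting error. The related gene bgnb, named after its values were seen, had 46.3, 160 and 267 in libraries 1, 3 and 6, another order. Nearest to runx2b were ube2e2, IKBIP and ccne2, with 368 genes within 0.5, and nearest to runx2a were cnr1, AL954696.1 and g3bp1, with 1428. With 3 samples such distances describe these libraries only. A further neighbour was named after its values were seen. The collagenase gene mmp13b, a late maturation gene, was the nearest to pthlha (distance 0.0347), with 113, 495 and 121 normalized counts in libraries 1, 3 and 6, and 125 genes lay within 0.5 of pthlha.

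The following genes of the lists were also named after their values were seen. The level of nkx3.2, whose mouse counterpart represses Runx2 and keeps chondrocytes immature, was 46.3, 13.2 and 426 normalized counts in libraries 1, 3 and 6, in the same order of libraries as col10a1. That of SIK1, a salt-inducible kinase, was 1130, 232 and 104 in the same libraries. The phosphatase gene phospho1, which serves matrix mineralization, had 0, 128 and 10 reads, and the channel gene panx3 had 0, 0 and 15 reads. Here too 0 was taken to allow up to 3, by the same fixed floor.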
